A study of Arabidopsis thaliana with 4 samples.

Results

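UDP-glycosyltransferases (UGTs) are enzymes that move a sugar from a UDP-sugar onto small molecules such as hormones, flavonoids, lignin precursors and glucosinolate intermediates. The genes described here are the 47 Arabidopsis thaliana genes whose probe set is paired with a single symbol of the form UGT, digits and a letter, out of 22746 probe sets that are not array controls. The naming rule uses no signal, but this family was chosen for description with earlier results of these data known. Each gene had 1 probe set, so no choice between probe sets was needed. RefSeq's table names 58 genes in this way, and most of those without a singly named probe set are not analysed here. All 47 members matched RefSeq by gene ID.

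The study compared whole plants, 5 weeks old and grown in hydroponics with 16 h of light a day, of 2 genotypes: wild type, given as La-er in the labels, and the mutant ago4-1. The mutated gene encodes an Argonaute that small interfering RNAs guide to chromatin, where it directs DNA methylation. There were 2 arrays per genotype, called biological replicates in the titles, on the Affymetrix ATH1 array. The sources used here do not say how many plants went into a sample, nor in which line ago4-1 arose.

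Plant UGTs share a conserved stretch near their C-terminal end that holds the UDP-sugar, while the N-terminal part takes the acceptor. Attaching a sugar usually makes a small molecule more soluble and less active, and the product is often stored in the vacuole or cleaved again by a glucosidase. The family is divided by sequence into lettered groups, and each UGT number belongs to 1 group. Of the 47 members, 7 fall in group D (UGT73), 14 in group E (UGT71, UGT72 and UGT88), 3 in group F (UGT78), 5 in group G (UGT85), 8 in group H (UGT76), 1 in group J (UGT87) and 8 in group L (UGT74 and UGT84). The remaining member, UGT80B1, makes sterol glucosides and stands outside the lettered groups.

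Arrays had medians from 151 to 165 and the same trimmed mean of 500.1. On the log2 scale they correlated at r = 0.978 between the wild-type arrays and 0.973 between the ago4-1 arrays, and at 0.949 to 0.96 across genotypes, over the 15922 tested probe sets. The leaf markers that could be paired, RCA and LHCB4.1 (2 of 9), summed to 61860 and 62800 in wild type against 58370 and 60970 in ago4-1. The root markers (3 of 8) summed to 396 and 219 against 409.7 and 181. Among them PYK10 and EXPA7 overlapped between genotypes, at differences of 0.25 and 0.20. EXPA18 did not overlap, at 98.1 and 76.9 in wild type against 49.5 and 6.13 in ago4-1. Its difference of -1.44 did not pass (limma adjusted p = 0.186). The flower, anther and pollen markers (4 of 11) summed to 90.04 and 95.5 in wild type against 968 and 979 in ago4-1. Of these 4 markers 3 were higher in ago4-1, namely AT1G10770, AT5G07430 and AT3G07820, which were put on the list with earlier results of these data known. AT5G07430 did not pass without ago4-1 replicate 1 (limma adjusted p = 0.0595). The fourth, AMS, a regulator of anther development, was at 65.5 and 69.2 in wild type against 33.0 and 69.7 in ago4-1 and did not pass (difference -0.36). The senescent leaf markers (2 of 5) summed to 285 and 323 in wild type against 346 and 493 in ago4-1, without overlap. Neither passed, SAG29 standing at 0.50 without overlap (limma adjusted p = 0.211). WRKY6 overlapped, at 29.0 and 84.5 in wild type against 40.1 and 77.9 in ago4-1 (difference 0.11). None of the paired markers was at 0, but the lowest signals of the arrays were 0.10 to 0.12, so this shows no detection. In wild type AT5G07430 was at 1.53 and 2.03, AT1G10770 at 5.14 and 7.31, and AT3G07820 at 17.8 and 17.0. The part that a difference in plant organs has in the UGT results was not tested. In whole plants, fewer cells of a type and less RNA per cell cannot be told apart.

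Across the 47 UGT genes, ago4-1 and wild type were close: 25 genes had a difference below 0 (52.9% of all probe sets did) and 22 above 0, with a median log2 difference of -0.02 (ago4-1 minus wild type), where all 22746 probe sets had a median of -0.03. All differences are of log2(signal + 16), a scale that understates changes of low signals. Of the 47, 26 had a mean log2 value at or above the 30th percentile of all probe sets, a cut that stands at a signal of 44.0, and were tested with limma; the other 21 were below it on average. UGT76E11 and UGT72B3 were lower in ago4-1 and passed at an adjusted p under 0.05, and 0 members passed as higher. These calls are 2 of 26 (7.69%), where 4.06% of all 15922 tested probe sets passed, 1.92% as lower and 2.14% as higher. With no low-signal filter 1 of 47 members passed, where 0.615% of all probe sets did. At 4.06% the 26 members would give 1.06 calls, so the count is no result about the family. At an unadjusted limma p under 0.05, 6 of the 26 tested members were lower and 2 of the 26 were higher. The shares over all tested probe sets were 11.4% and 8.96%.

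Replicates set the scale for these differences. The gap between the replicates had a median over members of 0.25 in wild type and 0.25 in ago4-1 on the log2 scale, and the genotype difference had a median size of 0.31. The genotype difference was larger than the larger replicate gap in 15 of 47 members (31.9%), against 33.5% of all probe sets. The genotypes did not overlap in 24 members (51.1%), 14 lower and 10 higher in ago4-1, where 47.1% of all probe sets did not overlap, 25.4% lower and 21.7% higher. Differences of at least 1 log2 unit were found in 6 members (12.8%), where 5.82% of all probe sets reached that size, and 3 of these 6 were below the signal filter.

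**Figure D1:**
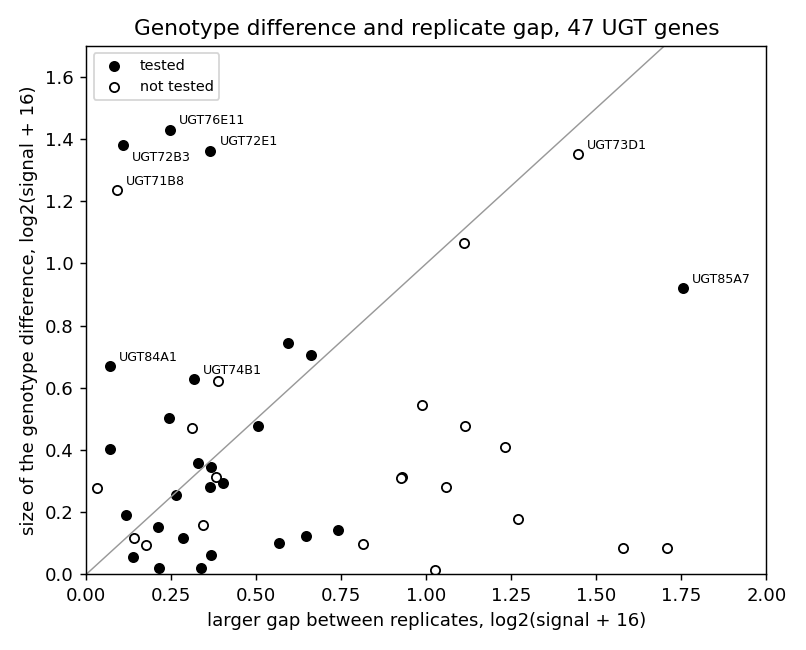
Size of the difference between genotypes (y axis) against the larger of the gaps between the replicates of a genotype (x axis), both on the log2(signal + 16) scale, for the 47 UGT genes, with tested members filled and untested members open. UGT76E11, UGT72B3 and UGT72E1 lie far above the line of equality, while UGT85A7 and UGT73D1 lie below it.

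Group H, the UGT76 genes, held 1 of the 2 calls. UGT76E11, an enzyme for which activity on flavonoids has been reported, had signals of 699 and 587 in wild type against 243 and 213 in ago4-1. Both ago4-1 arrays were far below both wild-type arrays. UGT76E11 fell 2.69-fold (log2 difference -1.43, SE 0.18, limma adjusted p = 0.00529). Its adjusted p was 0.0527 with no variance trend, the only 1 of 13 alternatives in which the call was lost, and its difference ran from -1.55 to -1.31 with each array left out in turn.

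The cytokinin N-glucosyltransferases UGT76C1 and UGT76C2 lie next to each other on chromosome 5. UGT76C2 was at 229 and 192 in wild type against 157 and 130.3 in ago4-1. Its arrays did not overlap between genotypes, but the difference of -0.50 (SE 0.22) did not pass (limma adjusted p = 0.249), with a 95% interval from -1.01 to 0.005. UGT76C1 was at 108 and 106 in wild type against 97.1 and 78.2 in ago4-1, also without overlap, with a difference of -0.25 (limma adjusted p = 0.654). UGT76D1, which acts on dihydroxybenzoic acids, overlapped at 66.3 and 51.6 against 59.4 and 70.97. The other members of the group were below the filter on average and were not tested. UGT76B1, which glucosylates isoleucic acid and salicylic acid, was at 3.97 and 30.9 in wild type against 10.8 and 3.802 in ago4-1. UGT76E1, which acts on hydroxylated jasmonate, was at 8.10 and 42.2 in wild type against 33.1 and 6.33 in ago4-1. In both genes the replicates of a genotype lay further apart than the genotypes. UGT76E2 stood at -0.02 and UGT76E12, the close neighbour of UGT76E11 on chromosome 3, at -0.12, from signals of 4.94 and 2.996 in wild type against 2.54 and 2.25 in ago4-1. In group H 7 of 8 members were below 0, with a median of -0.22.

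Group E is the largest of the groups here. Its UGT72 enzymes are known for adding glucose to monolignols, the building blocks of lignin, and to related phenols. UGT72B3 had signals of 203 and 211 in wild type against 66.3 and 72.8 in ago4-1, with replicates within 0.11 log2 units of each other in both genotypes. UGT72B3 fell 2.61-fold (log2 difference -1.38, SE 0.24, limma adjusted p = 0.0196). The call was lost with no low-signal filter (adjusted p = 0.0959) and without ago4-1 replicate 1 (0.0577). The difference ran from -1.44 to -1.33 with each array left out in turn.

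UGT72E1, which acts on coniferyl and sinapyl aldehydes and alcohols, was at 74.1 and 100.05 in wild type against 20.5 and 27.4 in ago4-1. The genotypes did not overlap, and the difference was nearly as large as that of UGT72B3 at -1.36, but its error was larger (SE 0.40, 95% interval -2.27 to -0.46) and it did not pass (limma adjusted p = 0.101). UGT72E1 stood above the signal filter in wild type and below it in ago4-1. UGT72E2, the main enzyme for coniferyl alcohol glucoside, was at 126 and 115 in wild type against 147 and 125 in ago4-1, so the genotypes overlapped (difference 0.15, limma adjusted p = 0.769, 95% interval -0.40 to 0.70). UGT72E3, the sinapyl alcohol enzyme, was listed at 3.25 and 3.56 in wild type against 7.79 and 7.30 in ago4-1, below the filter. A difference between UGT72 members in their response to the genotype was not tested.

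Within the UGT71 genes of group E, UGT71C5, which glucosylates abscisic acid, overlapped between genotypes at 352 and 271 against 338 and 259. Its neighbour UGT71C4 was at 489.9 and 449 in wild type against 539 and 681 in ago4-1, without overlap (difference 0.36, SE 0.18, limma adjusted p = 0.302). UGT71C3, the next gene along, was low, at 13.9 and 21.0 in wild type against 9.53 and 6.54 in ago4-1, and stood on the other side of 0 at -0.47. UGT71B1 was at 506 and 469 in wild type against 427 and 639.6 in ago4-1, the ago4-1 arrays lying on either side of the wild-type arrays (limma adjusted p = 0.828). UGT71B8 was below the filter, with replicates close together in each genotype. It was at 39.1 and 35.9 in wild type against 6.01 and 7.43 in ago4-1, a difference of -1.24, and its adjusted p in the fit with no low-signal filter was 0.158. UGT71B6, an abscisic acid glucosyltransferase, had wild-type signals of 3.88 and 48.9 that enclosed its ago4-1 signals. UGT71B5 stood at -0.31 and UGT71C2 at -0.16, both with overlap, and UGT71C1 at 0.62, from 4.58 and 5.90 in wild type to 21.3 and 12.6 in ago4-1.

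UGT88A1, also of group E, was at 1615 and 2299.6 in wild type against 1322 and 1439.9 in ago4-1. The genotypes did not overlap, though the wild-type replicates were further apart than the genotype difference of -0.48 (SE 0.18, limma adjusted p = 0.186). Group E had 8 members below 0 and 6 above 0, with a median of -0.11 and 1 call.

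**Figure D2:**
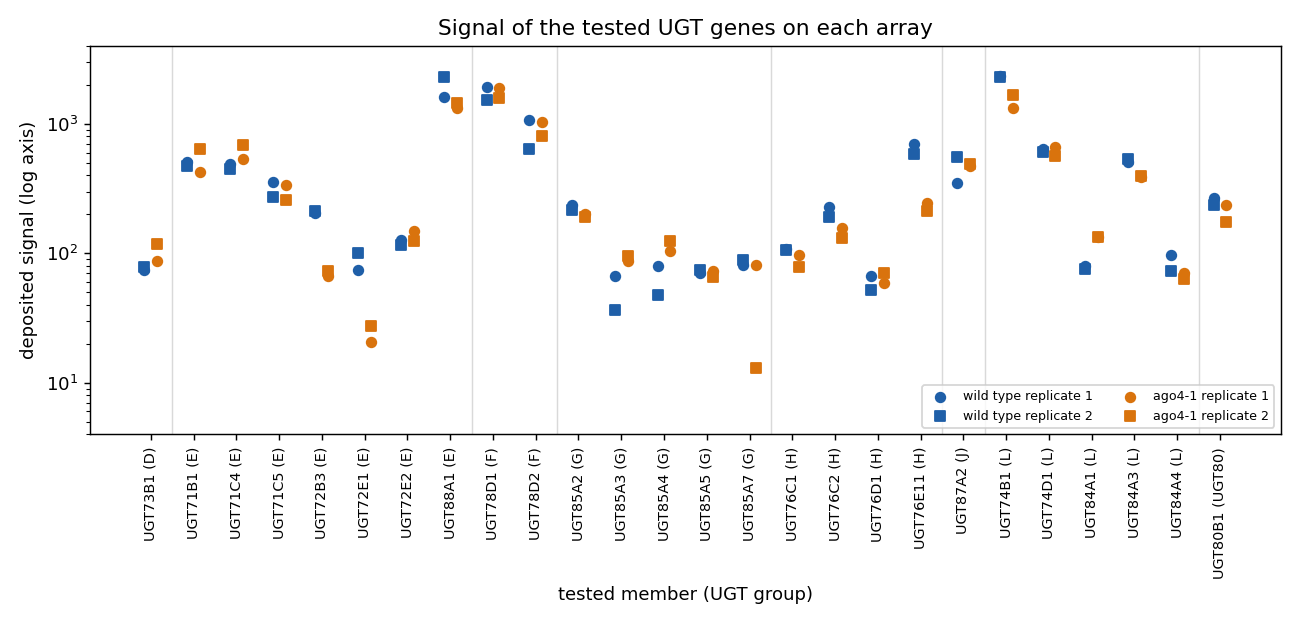
Deposited signal (y axis, log scale) of the 26 tested UGT genes (x axis, with their UGT group) on the wild-type arrays (blue) and ago4-1 arrays (orange), circles for replicate 1 and squares for replicate 2. UGT76E11 and UGT72B3 have both orange points well below both blue points, while UGT78D1 and UGT74D1 do not separate; heights are not comparable between genes, since each has its own probes.

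Group L holds the UGTs of glucosinolate synthesis, of auxin and salicylic acid, and of hydroxycinnamic acids. UGT74B1, which adds the glucose in the core glucosinolate pathway, was at 2323 and 2305 in wild type against 1336 and 1667 in ago4-1. Both ago4-1 arrays were below both wild-type arrays, and the difference of -0.63 (SE 0.15, 95% interval -0.97 to -0.29) just missed the threshold (limma adjusted p = 0.0556). It passed in 4 of 13 alternatives, over which the adjusted p ran from 0.00058 with the replicate block to 0.188 with no variance trend. UGT74D1, which acts on oxidised auxin, had a difference of -0.02 with a 95% interval from -0.39 to 0.35, its signals overlapping at 636 and 609 against 663 and 569. UGT74F1, a salicylic acid glucosyltransferase, was low, at 3.87 and 8.11 in wild type against 6.69 and 29.0 in ago4-1.

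Of the hydroxycinnamate glucosyltransferases, UGT84A1, UGT84A3 and UGT84A4 sit side by side on chromosome 4, with differences on both sides of 0. UGT84A1 was at 80.4 and 75.8 in wild type against 134 and 133 in ago4-1, with replicates close together in each genotype and a difference of 0.67 (SE 0.26, limma adjusted p = 0.197). UGT84A3 was at 507 and 532 in wild type against 385 and 393 in ago4-1, with a difference of -0.40 (SE 0.16, limma adjusted p = 0.211). Neither passed, and the 95% intervals ran from 0.07 to 1.27 and from -0.77 to -0.03. UGT84A4 was at 97.8 and 72.4 in wild type against 69.8 and 63.4 in ago4-1 (difference -0.28, limma adjusted p = 0.67). The indole-3-acetic acid enzyme UGT84B1 and its neighbour UGT84B2 were below the filter, at -0.48 and 1.07. UGT84B2 was at 4.18 and 19.1 in wild type against 65.9 and 21.9 in ago4-1, where the ago4-1 replicates lay 1.11 log2 units apart and the difference ran from 0.51 to 1.62 with an array left out. Group L had 5 members below 0 and 3 above 0, with a median of -0.15 and 0 calls.

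Group F holds the flavonoid UGTs, and none of its 3 members separated the genotypes. UGT78D1, the flavonol rhamnosyltransferase, was at 1930.0 and 1523 in wild type against 1902 and 1592 in ago4-1 (difference 0.02, 95% interval -0.35 to 0.40). UGT78D2, which glucosylates flavonols and anthocyanidins, was at 1071 and 634 in wild type against 1028 and 809.5 in ago4-1 (difference 0.14, 95% interval -0.41 to 0.70). UGT78D3, the flavonol arabinosyltransferase, was below the filter at 38.3 and 12.6 against 28.8 and 37.2. The limma adjusted p was 0.961 for UGT78D1 and 0.785 for UGT78D2.

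In group G all 5 UGT85 members were tested and 0 passed. UGT85A4 was at 79.5 and 47.2 in wild type against 104 and 125 in ago4-1 (difference 0.75, SE 0.33, limma adjusted p = 0.243). UGT85A3 was at 66.8 and 36.3 in wild type against 87.7 and 94.99 in ago4-1 (difference 0.70, SE 0.36, limma adjusted p = 0.315). Both were higher in each ago4-1 array than in either wild-type array, with the wild-type replicates 0.66 and 0.59 log2 units apart in UGT85A3 and UGT85A4. Without wild type replicate 2 the difference of UGT85A3 was 0.37 and that of UGT85A4 0.45, and without wild type replicate 1 both were 1.04. UGT85A2 was at 236 and 216 in wild type against 200.1 and 192 in ago4-1 (difference -0.19, limma adjusted p = 0.635), and UGT85A5 had a difference of -0.06. UGT85A7 rested on a single array: it was at 80.9 and 88.6 in wild type against 81.7 and 13.0 in ago4-1. Its difference of -0.92 became -0.04 without ago4-1 replicate 2.

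Group D, the UGT73 genes, was low, with 1 of 7 members tested. UGT73B1 was at 74.6 and 78.3 in wild type against 87.4 and 117 in ago4-1 (difference 0.34, SE 0.30, limma adjusted p = 0.561). UGT73D1 had a difference of 1.35, from 6.70 and 4.48 in wild type to 17.3 and 74.8 in ago4-1. Its ago4-1 replicates lay 1.45 log2 units apart, more than the genotypes. With an array left out its difference ran from 0.63 to 2.07, and its adjusted p with no low-signal filter was 0.295. UGT73C1, which acts on cytokinins and on nitroaromatic xenobiotics, had 44.2 and 4.18 in wild type against 5.08 and 35.1 in ago4-1. The pathogen-responsive UGT73B4 and UGT73B5 stood at 0.09 and 0.28, UGT73C2 at 0.31 and UGT73C7 at 0.10. Of the 7 members 6 were above 0, from signals mostly under the filter, and the group's median was 0.28.

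UGT87A2 of group J, which promotes flowering, was at 349 and 555 in wild type against 472 and 490.2 in ago4-1, the ago4-1 signals lying between those of wild type (difference 0.12, 95% interval -0.39 to 0.63, limma adjusted p = 0.799). The sterol glucosyltransferase UGT80B1, needed for a normal seed coat, was at 266 and 237 in wild type against 235 and 174 in ago4-1 (difference -0.29, SE 0.22, limma adjusted p = 0.485).

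**Figure D3:**
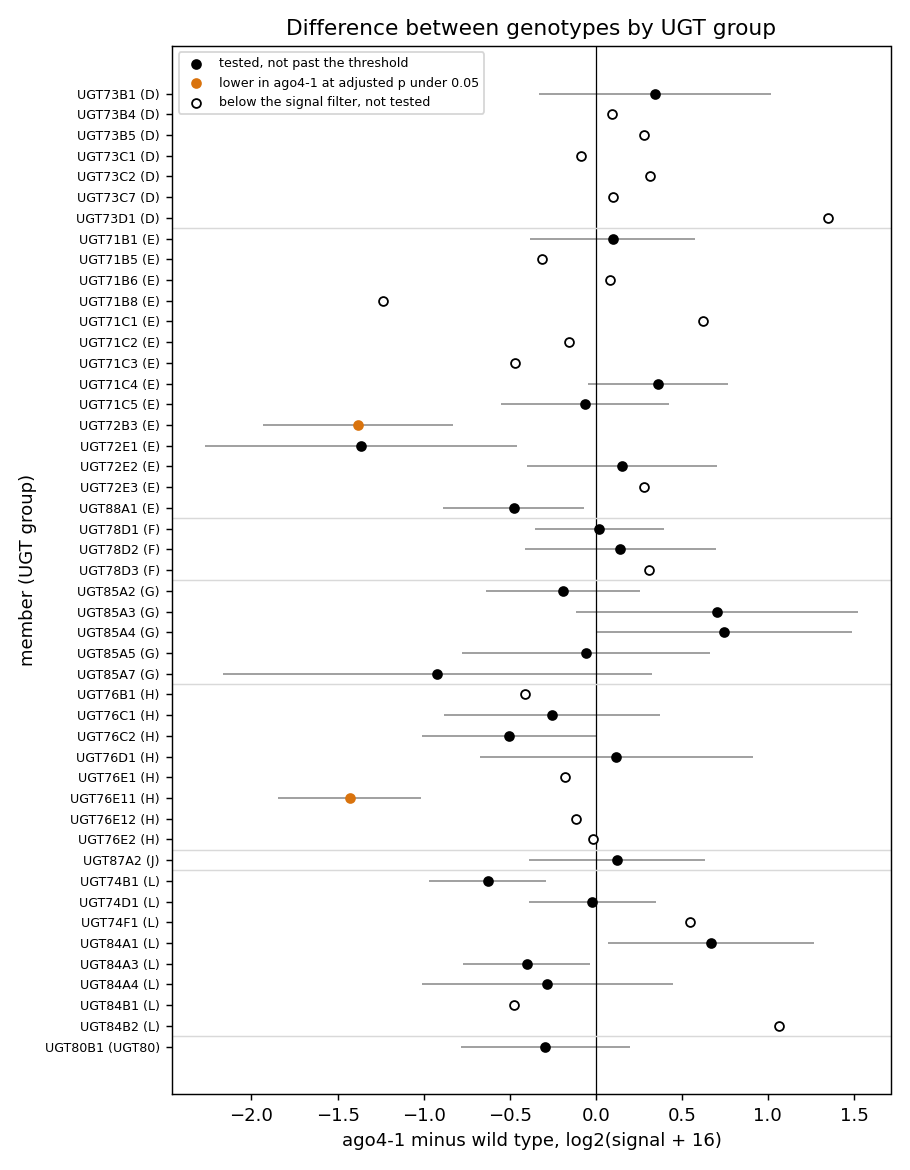
Difference between ago4-1 and wild type on the log2(signal + 16) scale (x axis) for each of the 47 UGT genes, sorted by UGT group (y axis), with 95% intervals from limma for the 26 tested members. UGT76E11 and UGT72B3, in orange, are lower in ago4-1 past the threshold, and open circles are members below the signal filter, which have no interval.

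Many UGT genes lie in tandem. Taking members at most 2 protein-coding genes apart as neighbours, 30 of the 47 fell into 13 clusters, the largest with 4 members, and 17 stood alone. Only members were counted, so one that stood alone may still lie beside a UGT gene outside the naming rule. In 6 of the 13 clusters all members lay on the same side of 0. No expected share was worked out for this count, so it is no result about neighbours. Members spread over the 5 chromosomes with 12 on chromosome 1, 12 on chromosome 2, 10 on chromosome 3, 5 on chromosome 4 and 8 on chromosome 5. Probe sequences were not used here, so signal shared between close copies cannot be told apart from signal of the named gene, although none of the 47 probe sets carries the suffix for probes known to match several genes.

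The genes around the 2 called members were read from the same fit. Within 10 protein-coding genes on either side of UGT72B3, 9 genes had a singly named probe set, 7 of them tested. Of these, AT1G01390, 3 genes away, was lower in ago4-1, at 302 and 198 in wild type against 116 and 76.04 in ago4-1 (log2 difference -1.24, limma adjusted p = 0.0499). That call was lost in 8 of 12 alternatives, with adjusted p up to 0.216. The other 6 tested genes did not pass, the adjacent TBL25 standing at -0.14. Around UGT76E11, 10 genes had such a probe set, but 1 was tested: AT3G46630 at -0.51 (limma adjusted p = 0.171). AT1G01390 and most of these neighbours of UGT76E11 are listed by locus name only. Whether any of them is itself a UGT gene, or a close copy of the called member, was not checked. UGT76E11 and UGT76E12 are the 2 members in the chromosome 3 stretch from AT3G24450 to AT3G47250, in which 278 singly named genes were tested. Of these, 20 (7.19%) were higher and 13 (4.68%) lower in ago4-1, together 11.9%, where 4.06% of all tested probe sets passed. The ends of that stretch were set with earlier results of these data known, so its share is a description.

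**Figure D4:**
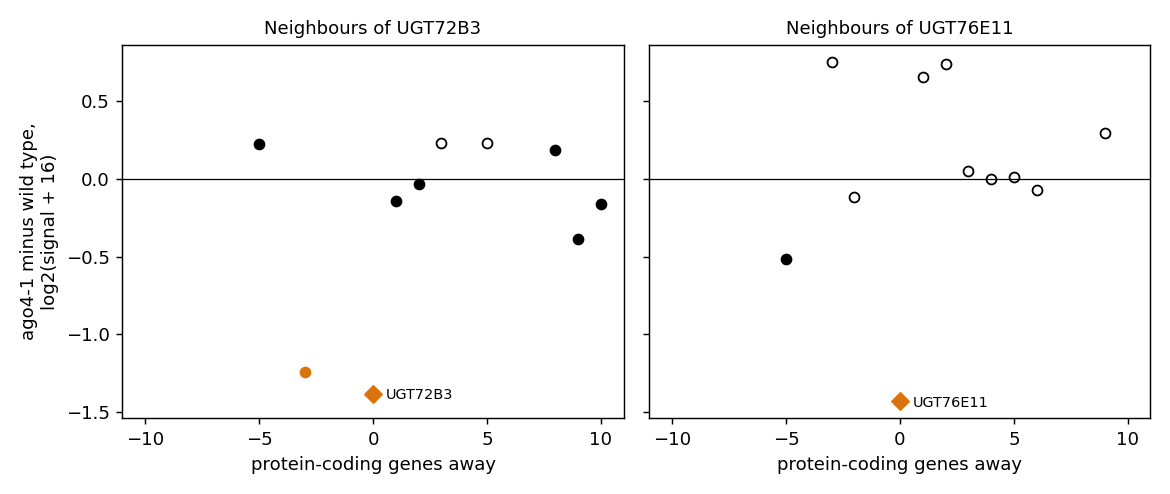
Difference between ago4-1 and wild type on the log2(signal + 16) scale (y axis) for genes up to 10 protein-coding genes from UGT72B3 and UGT76E11 (x axis, in genes), with called genes in orange, other tested genes in black and untested genes open. AT1G01390 at -1.24 is the other called gene beside UGT72B3, while the genes around UGT76E11 are mostly untested.

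Some UGT genes outside the naming rule were found by a RefSeq synonym or on a probe set shared by several genes. UGT genes with neither were missed, so the list may not be complete. GT72B1, listed by RefSeq also as UGT72B1, which conjugates monolignols and chlorinated phenols, was at 1179 and 1076 in wild type against 1009 and 1001 in ago4-1 (difference -0.16, limma adjusted p = 0.579). SGT, or UGT80A2, the other sterol glucosyltransferase, stood at -0.44 (adjusted p = 0.325), the anthocyanin xylosyltransferase UF3GT, or UGT79B1, at -0.10 (0.861) and the auxin glucosyltransferase IAGLU at -0.40 (0.297). AT5G54010, or UGT79B6, was not tested, with 45.4 and 2.36 in wild type against 36.4 and 43.0 in ago4-1. A probe set shared by UGT73B2 and UGT73B3 was at 61.0 and 124 in wild type against 149 and 200.4 in ago4-1 (difference 0.87, SE 0.33, limma adjusted p = 0.187). Those of UGT89B1 and UGT71D1, each shared with another gene, stood at -0.07 and 0.26.

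The pathways that feed the UGTs or act on their products were sparsely named. Genes were paired with probe sets by symbol, so an unpaired gene may still be on the array. Of 40 genes of UDP-sugar supply 1 was paired, the UDP-sugar pyrophosphorylase USP, which stood at -0.05 and did not pass. In the flavonoid list 2 of 44 genes were paired and 1 was tested. DFR, which makes leucoanthocyanidins, was at 1588 and 1056 in wild type against 698 and 642 in ago4-1 (difference -0.94, limma adjusted p = 0.0402). BAN, the anthocyanidin reductase, was below the filter, at 2.96 and 2.62 in wild type against 17.0 and 2.83 in ago4-1. So few of the 33 genes in the glucosinolate list could be paired, 3, that a count of calls says nothing about the pathway. All 3 were tested and 2 passed as lower, where 1.92% of all tested probe sets did. These were BCAT4, of methionine chain elongation, at -0.59 (adjusted p = 0.0228), and AOP3, of side-chain modification, at 7457 and 7778 in wild type against 5279 and 5643 in ago4-1 (difference -0.48, adjusted p = 0.0461). The third gene, AOP1, went the other way without overlap, at 342 and 316 in wild type against 493 and 358 in ago4-1. Its difference of 0.34 did not pass (limma adjusted p = 0.38). The calls of DFR, BCAT4 and AOP3 were each lost in 5 or 6 of 13 alternatives, with centred arrays, no low-signal filter, no variance trend and without ago4-1 replicate 1 among them for all 3 genes (adjusted p up to 0.216).

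Beta-glucosidases of the BGLU family remove sugars, the reverse of the UGT reaction for some substrates. Of 20 named BGLU genes 10 were tested, 1 passed as lower and 0 as higher (1.92% and 2.14% of all tested probe sets), and the median over the 20 was -0.19. A count of 1 in 10 is no result about the family. BGLU44 was at 4249 and 4046 in wild type against 2107 and 2466 in ago4-1 (difference -0.86, limma adjusted p = 0.0119, and 0.116 with no variance trend). Chosen after their values were seen, BGLU45 and BGLU46, which release monolignols from the glucosides that UGT72E enzymes make, stood at 0.02 and -1.13. BGLU46 was at 72.9 and 68.2 in wild type against 23.0 and 24.2 in ago4-1 and was not tested. Glutathione S-transferases, which conjugate xenobiotics beside the UGTs, had 13 named genes with a median of -0.05, of which 9 were tested. GSTU16 passed as higher, as 2.14% of all tested probe sets did, from 327 and 265 in wild type to 779 and 597 in ago4-1 (difference 1.17, limma adjusted p = 0.0177), and 0 passed as lower. Its call was lost with no low-signal filter, with no variance trend and without ago4-1 replicate 1 (adjusted p up to 0.0999). The sulfotransferases had 0 named probe sets.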

How the data were processed

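Per the labels' protocols, ATH1 arrays measured biotin-labelled RNA from 2 wild-type (La-er) and 2 ago4-1 samples. The deposited intensity values, a linear signal for each probe set and array, were made by the authors with GCOS, per the submitters' processing notes. Its version and settings are not given. Arrays had equal trimmed means and were not scaled further. The titles call the samples biological replicates, and the number of arrays limits the precision.

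The 64 control probe sets were left out. Of the rest, 13513 were paired with 1 symbol, 503 with several and 8730 were not listed. RefSeq's table (TAIR10.1) gave names and gene order only, since the files name no build. Values were taken as log2(signal + 16), and probe sets below the 30th percentile of the mean log2 value were not tested. All 15922 others were fitted in limma 3.58.1 with R 4.3.3 (variance trend, two-sided, Benjamini-Hochberg). Residual degrees of freedom were 2, with a prior of 6.72 at the median. The procedure was tested on simulated data. Folds are of signal + 16.

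The members, the gene lists and the tests were chosen with earlier results of these data known. Every member may be named. The naming rule gave full values to called members, to up to 10 tested members in each direction without overlap and to the tested member with the highest mean in each group. From related lists it took called genes or the gene with the smallest p, and 2 probe sets whose symbol (CHI, PGM) RefSeq gives to a chitinase and a phosphoglycerate mutase were dropped from those lists after the data were seen. Alternatives were quantile normalization, median centring, pseudocounts of 1 and 64, other filters, no variance trend, robust moderation, a replicate block, and leaving out each array. With 1 array left in a genotype, limma takes that array to vary like the other genotype's.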

Additional observations from a re-analysis of the deposited data

How the results depend on the processing

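The count of 2 called UGT members was 1 with no low-signal filter (UGT76E11), 1 with the filter at the 50th percentile, which leaves UGT72B3 untested, 1 with no variance trend (UGT72B3), and 5 with the replicate block, where UGT72E1, UGT88A1 and UGT74B1 were added. With an array left out it was between 1 and 3, the lowest without ago4-1 replicate 1 and the highest without ago4-1 replicate 2. Every called member in every alternative was lower in ago4-1. Outside the members, the probe set shared by UGT73B2 and UGT73B3 passed as higher with the replicate block (limma adjusted p = 0.0213). The count of all called probe sets, 647, was 140 with no filter, 93 with no variance trend, 2409 with the replicate block, and, without those same 2 arrays, 280 and 1046. The cause of these shifts was not tested. Same-numbered arrays deviated together at r = 0.166, with 2 pairs, and the labels give the numbers no shared origin, so the block is no pairing. The members' median ran from -0.09 without ago4-1 replicate 2 to 0.03 with centred arrays, within the spread of 0.20 between replicates. With an array left out, 8 of the 26 tested members changed sign, none of them called: UGT78D1 (-0.15 to 0.19), UGT78D2 (-0.23 to 0.51), UGT71B1 (-0.18 to 0.38), UGT71C5 (-0.24 to 0.12), UGT74D1 (-0.13 to 0.088), UGT76D1 (-0.024 to 0.26), UGT85A5 (-0.12 to 0.012) and UGT87A2 (-0.20 to 0.45). So did 11 of the 21 untested members. UGT74D1 also turned to 0.00025 with quantile normalization and 0.032 with centred arrays. Of the other genes named, AMS (-0.77 to 0.041), the probe set of UGT89B1 (-0.32 to 0.18), BGLU45 (-0.37 to 0.42), TBL25 (-0.36 to 0.076) and UF3GT (-0.43 to 0.24) changed sign with an array left out, and USP was 0.0050 with centred arrays. No alternative with several probe sets per gene could be run, since each member has 1. The balance of called probe sets, 52.7% higher, was 61.7% with centred arrays, where the median over all probe sets moved from -0.03 to 0.02. The 21 members under the filter at 44.0 have no test.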
